A study of Mus musculus with 18 samples.

Results

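The genes described here lie on the proximal part of mouse chromosome 16, which both Down syndrome mouse models studied carry in 2 copies, as WT littermates do. The segment is everything that starts below 84 Mb in GRCm38. It adjoins the distal part of the chromosome, whose genes are present in an extra copy in the models. Members are the 112 genes of the segment, of 4811 named genes tested, that have a probe detected (detection p under 0.05) on at least 3 of the 18 arrays. They are read by 123 of the 21331 tested probes. Genes whose symbols begin with any of a set of prefixes of large families (such as Rpl and Slc) were left out, which removed 23 genes. Of the 197 genes of the segment that remained, 97 had a probe that was not detected on 3 arrays, some of them members through another probe. Of the member probes, 94 were detected on all 18 arrays and 6 on 3 to 5 arrays. Copy number itself was not measured.

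The distal part of mouse chromosome 16 is homologous to the human chromosome that is trisomic in Down syndrome. Ts65Dn mice carry it on a small extra chromosome that also holds a piece of another chromosome. Ts1Cje mice carry a shorter stretch of it, distal to Sod1, as a translocation. The proximal part holds the genes homologous to human 22q11, the region deleted in DiGeorge syndrome, and several genes of haploid male germ cells. In the first wave of spermatogenesis, germ cells of juvenile males pass through meiotic prophase toward the first round spermatids.

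The samples were total RNA of enriched male germ cells, in 6 groups of 3 biological replicates: Ts65Dn at 19-20 and at 16-17 days post partum (dpp), Ts1Cje at 19-20 and at 16-17 dpp, and diploid WT littermates at 19-20 and at 16-17 dpp. How the cells were enriched, whether animals were pooled and the strain background are not given in the sources used here. Each sample was read on an Illumina MouseWG-6 v1.1 BeadArray. Values are background-corrected, quantile-normalised log2 intensities of single probes, and for a gene with several probes the brightest is given. A change is a difference between group means on that scale, with its standard error. Every adjusted p comes from limma across all tested probes with Benjamini-Hochberg adjustment, and a gene is called at an adjusted p under 0.05. The arrays detected 17102 to 19784 probes each, and arrays of a group correlated at 0.925 to 0.988.

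Some arrays stood apart from others of their group on genes of late germ cells. At 19-20 dpp, replicate 1 of Ts1Cje had Tssk2 at 10.88 against 6.98 and 6.71 on the other arrays, and replicate 1 of WT had it at 9.02 against 6.55 and 6.46. At 16-17 dpp, replicate 1 of Ts1Cje had Septin12 at 9.21 against 5.79 and 6.97, and replicate 1 of WT had it at 9.44 against 6.18 and 6.69. Markers of several cell types moved with age. Of 15 round spermatid markers 7 were detected (Prm2 has a probe and was not). Their summed intensity on the log2 scale was 13.44 to 14.50 in Ts65Dn, 14.72 to 15.98 in Ts1Cje and 14.84 to 15.62 in WT at 19-20 dpp, against 11.74 to 12.13 in Ts65Dn, 11.21 to 13.11 in Ts1Cje and 11.80 to 13.23 in WT at 16-17 dpp. Sertoli markers, 3 of 13 detected, lay at 15.06 to 15.53 in Ts65Dn, 14.26 to 15.55 in Ts1Cje and 14.47 to 15.08 in WT at 19-20 dpp, and at 15.66 to 15.95, 15.14 to 15.88 and 15.50 to 15.68 in the same genotypes at 16-17 dpp. With age, round spermatid markers rose for 4 of 7 in Ts65Dn, 6 in Ts1Cje and 6 in WT. Of 3 meiotic prophase markers 0 fell in Ts65Dn, 3 in Ts1Cje and 3 in WT, and of 4 spermatogonial markers 0, 4 and 2 in the same genotypes. In bulk samples, fewer cells of a type and less RNA per cell cannot be told apart, and the part of cell composition in the results was not tested.

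The largest rises of the segment with age included genes of late male germ cells, and the promoters of 4 such genes are shown because 3 share a short motif. Septin12 encodes a testis septin of the sperm annulus. Tssk1 and Tssk2 encode testis-specific serine kinases of spermatids, and Rbm11 encodes a tissue-restricted splicing regulator. The promoters, from RefSeq on GRCm38.p6, run from 250 bases before to 50 bases after a transcript start, which lies within the annotated gene for Rbm11 and is the annotated gene start for the other 3. They lie at chr16:17893953-17894252 (plus strand) for Tssk1, chr16:17898387-17898686 (plus strand) for Tssk2, chr16:75592641-75592940 (plus strand) for Rbm11 and chr16:4997803-4998102 (minus strand) for the first listed start of Septin12. Capitals mark TGACTTCA or its reverse complement TGAAGTCA.
Tssk1: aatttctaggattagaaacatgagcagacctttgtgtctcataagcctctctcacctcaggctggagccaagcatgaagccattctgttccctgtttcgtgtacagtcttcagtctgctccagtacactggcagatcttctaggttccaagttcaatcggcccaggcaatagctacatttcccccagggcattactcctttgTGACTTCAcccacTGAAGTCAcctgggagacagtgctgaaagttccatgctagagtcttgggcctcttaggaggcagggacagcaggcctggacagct
Tssk2: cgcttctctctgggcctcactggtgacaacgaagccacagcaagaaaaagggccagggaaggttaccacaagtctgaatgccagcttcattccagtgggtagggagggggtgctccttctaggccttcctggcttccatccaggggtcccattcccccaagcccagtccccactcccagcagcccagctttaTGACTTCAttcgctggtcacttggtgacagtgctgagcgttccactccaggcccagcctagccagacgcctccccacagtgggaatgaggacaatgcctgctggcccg
Rbm11: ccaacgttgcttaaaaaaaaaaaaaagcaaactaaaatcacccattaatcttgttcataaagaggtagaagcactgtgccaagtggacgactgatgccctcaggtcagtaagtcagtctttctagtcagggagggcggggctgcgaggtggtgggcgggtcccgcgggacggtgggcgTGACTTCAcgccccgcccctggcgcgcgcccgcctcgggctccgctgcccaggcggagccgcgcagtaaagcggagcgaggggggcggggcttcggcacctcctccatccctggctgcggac
Septin12: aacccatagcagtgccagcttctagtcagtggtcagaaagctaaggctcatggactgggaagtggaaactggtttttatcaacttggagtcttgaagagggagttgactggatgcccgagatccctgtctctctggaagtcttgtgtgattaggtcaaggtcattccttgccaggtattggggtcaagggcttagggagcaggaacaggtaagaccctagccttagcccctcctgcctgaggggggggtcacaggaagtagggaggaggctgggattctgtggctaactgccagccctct

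TGACTTCA resembles TGACGTCA, the cAMP response element, and was searched for after these letters had been seen. RefSeq lists 113 promoters for 95 of the 112 member genes. On both strands, TGACTTCA was found in 3 of these promoters (2.65%) and in 1.52% of all 32851 promoters. The 3 were those of Tssk1, Tssk2 and Rbm11, from whose letters TGACTTCA was chosen. Their share was therefore fixed in advance and does not set the members apart. The matches start 48 and 35 bases before that start for Tssk1, 58 bases before it for Tssk2 and 72 bases before it for Rbm11. No match lay in the Septin12 window or in that of its second listed start. None lay in the 3 listed promoters of Ccdc116, another late germ cell gene that rose, which are not shown. TGACGTCA was in none of the 4 windows shown. TGACGTCA was found in 2.65% of member promoters and 1.79% of all promoters. Among the 23 promoters of members that rose with age in WT, 2 (8.7%) held TGACTTCA and 0% held TGACGTCA. The 2 were those of Tssk1 and Rbm11, from whose letters TGACTTCA was chosen, so their share was fixed in advance. Among the 41 promoters of members that fell, the shares were 0% and 2.44%. The MYB core AACNG was found in 78.3% of promoters of members that rose, 73.2% of those that fell and 80.3% of all promoters. In the same sets the shares were 17.4%, 26.8% and 20.8% for TGACG, which lies within TGACGTCA, 39.1%, 39% and 37.4% for CCAAT, and 4.35%, 17.1% and 7.15% for CACGTG. These shares describe letters in a window and were not tested.

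In WT germ cells, where no copy number differs, 54.5% of member probes were called with age, beside 46.7% of all tested probes. At 19-20 dpp 21 member probes rose and 46 fell relative to 16-17 dpp, beside 18.5% higher and 28.1% lower among all tested probes. With median scaling in place of quantile normalisation, 21 rose and 27 fell. The median change was -0.39 over the member probes and -0.23 over all tested probes. The rises were led by Septin12, Ccdc116, Tmem30c, Rbm11, Tssk1 and Liph, and the falls by Riox2, Alcam, Carhsp1, Mb21d2, Vasn and 2510009E07Rik. The number called was 43 without replicate 2 of WT at 16-17 dpp, 42 without replicate 3 of that group and 35 without replicate 1 of WT at 19-20 dpp.

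Septin12 measured 11.95, 11.27 and 10.82 in WT at 19-20 dpp, against 9.44, 6.18 and 6.69 in WT at 16-17 dpp. The groups did not overlap, and Septin12 rose by 3.91 ± 0.80 (adjusted p = 0.0024, limma). Without replicate 2 at 16-17 dpp the rise was 3.28 (adjusted p = 0.015, limma), and without replicate 1, the high array of that group, it was 4.91 (adjusted p = 0.00029, limma). Tmem30c, of the family of phospholipid flippase subunits, measured 12.40, 12.10 and 12.46 in WT at 19-20 dpp, against 10.74, 8.02 and 8.74 in WT at 16-17 dpp. It rose by 3.15 ± 0.87 (adjusted p = 0.011, limma) without overlap, and the call was lost without replicate 2 at 16-17 dpp, when the change was 2.58. Without replicate 1 of that group it was 3.94. Ccdc116, a coiled-coil protein, measured 10.60, 9.75 and 9.43 in WT at 19-20 dpp, against 7.16, 5.93 and 6.47 in WT at 16-17 dpp. It rose by 3.41 ± 0.50 (adjusted p = 0.00031, limma), again with every later array above every earlier one.

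Rbm11 measured 10.26, 9.90 and 9.91 in WT at 19-20 dpp, against 8.78, 7.81 and 7.84 in WT at 16-17 dpp. It rose by 1.88 ± 0.35 (adjusted p = 0.0013, limma) without overlap. Tssk1 measured 8.92, 7.77 and 7.85 in WT at 19-20 dpp, against 6.48, 6.51 and 5.99 in WT at 16-17 dpp. It was not well above background on any WT array at 16-17 dpp and was at least 3.07-fold higher at 19-20 dpp (adjusted p = 0.01, limma). Such a bound sets the mean of the brighter group against the lowest detected signal of each array of the dim group, or the probe's own where that is higher. Without replicate 1 of WT at 19-20 dpp the fitted change of Tssk1 was 1.48 and no longer passed (adjusted p = 0.057, limma). The neighbouring Tssk2 was detected on 2 of 3 WT arrays at 19-20 dpp and on none at 16-17 dpp. It was detected on 5 arrays in all, WT or Ts1Cje at 19-20 dpp, and became a member only through these groups, so no test is given for it. Liph, a phospholipase, rose by 1.59 ± 0.40 (adjusted p = 0.0072, limma).

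**Figure D1:**
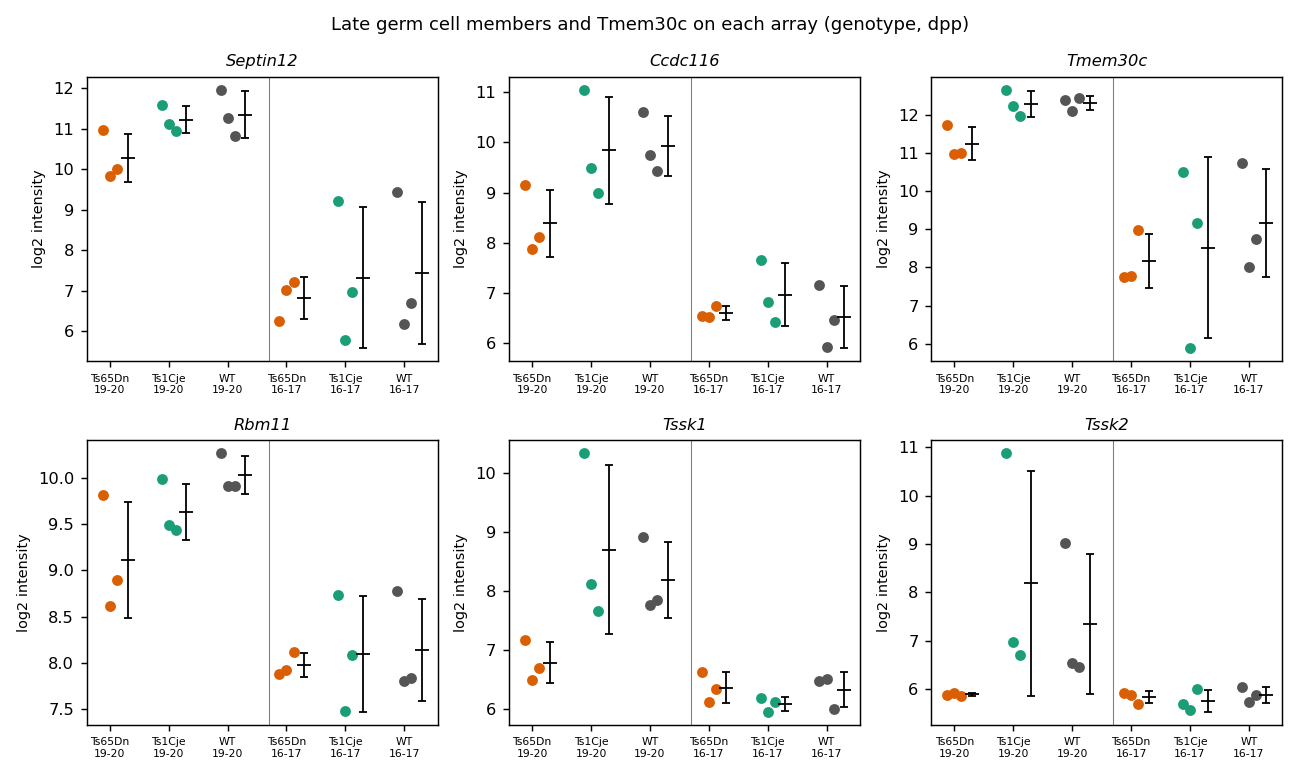
Log2 intensity of 5 late germ cell members and Tmem30c on each array, with the 19-20 dpp groups left of the 16-17 dpp groups and Ts65Dn and Ts1Cje left of WT in each panel. Points are arrays, and the dash and bar beside them are the mean and SD of 3 arrays; Septin12 shows the high replicate 1 of Ts1Cje (9.21) and of WT (9.44) at 16-17 dpp.

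The falling members had many functions. Riox2, a ribosomal oxygenase, measured 5.54, 5.56 and 6.26 in WT at 19-20 dpp, against 7.90, 9.42 and 9.44 in WT at 16-17 dpp. It was not well above background on any of the later arrays and was at least 4.78-fold lower (adjusted p = 0.00061, limma). Alcam, a cell adhesion molecule, measured 6.24, 7.42 and 7.15 in WT at 19-20 dpp, against 8.01, 8.54 and 9.03 in WT at 16-17 dpp. It fell by 1.59 on the log2 scale (SE 0.34, adjusted p = 0.0028, limma), and neither gene's groups overlapped. Carhsp1, an RNA-binding protein, measured 10.91, 11.39 and 11.43 in WT at 19-20 dpp, against 12.39, 12.77 and 12.83 in WT at 16-17 dpp, a change of -1.42 ± 0.36. The other leading falls were -1.29 ± 0.40 for Mb21d2, -1.27 ± 0.36 for Vasn, a membrane protein that binds TGF-beta, and -1.20 ± 0.45 for 2510009E07Rik.

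The list of late germ cell genes has 6 members, of which Septin12, Ccdc116, Rbm11 and Tssk1 rose with age in WT. It also holds Dppa4, which by its known role is a chromatin-associated protein of pluripotent and early germ cells and not of late ones. Dppa4 fell, at -0.99 ± 0.21, and its second probe was called too, at -0.94. Of 10 transcription and chromatin genes, 1 rose and 7 fell. Med15, a Mediator subunit, rose by 0.76 ± 0.14, while Tbx1, a T-box factor, changed by -1.10 ± 0.25. Of 6 replication and repair genes, 1 rose and 2 fell. Ercc4, the XPF nuclease of nucleotide excision and crosslink repair, measured 12.36, 11.96 and 11.88 in WT at 19-20 dpp, against 10.95, 10.45 and 10.39 in WT at 16-17 dpp. It rose by 1.47 ± 0.27 (adjusted p = 0.0012, limma). The second Ercc4 probe was detected on 9 arrays in all and on no WT array at 16-17 dpp. It was called too, at least 2.07-fold higher at 19-20 dpp. Prkdc, the catalytic subunit of DNA-dependent protein kinase, changed by -0.79 ± 0.21.

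Of the 18 members homologous to human 22q11, 4 rose and 6 fell with age in WT. Septin5, a septin of secretory cells, rose by 1.26 ± 0.32, Gnb1l, a WD-repeat protein, by 0.90 ± 0.18 and Ess2 by 0.52 ± 0.19, beside Med15. The falls included -0.94 ± 0.32 for the palmitoyltransferase Zdhhc8 and -0.52 ± 0.17 for Klhl22, beside Tbx1. The 2 Klhl22 probes correlated at 0.114 across the arrays, and the second, at -0.09, was not called. Dgcr2, an adhesion receptor, changed by -0.77 ± 0.15, and its second probe, at -0.45, was not called. Beside Tssk2, the others, Ydjc, Crkl, Prodh, Ranbp1, Trmt2a, Tango2 and the histone chaperone Hira, lay between -0.42 ± 0.17 (Hira) and 0.67 ± 0.28 (Ydjc), none of them called.

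Among 14 signalling genes 0 rose and 4 fell, with the endosomal protein Litaf at -1.04 ± 0.36. Of 6 adhesion and junction genes, 2 fell, led by Alcam. Of 11 mitochondrial and metabolic genes, 5 fell, among them Tomm70a at -0.87 ± 0.22. Of 11 genes of RNA and protein synthesis, 2 rose, led by Rbm11, and 5 fell, led by Carhsp1. Of 10 membrane traffic and cilium genes, 4 fell, led by Litaf. The adhesion, metabolic and traffic lists held no call in the other direction, and several genes stand in 2 lists.

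In Ts1Cje 20 member probes rose and 48 fell with age, beside 45.3% of all tested probes called (18% higher and 27.3% lower). The median change was -0.43 over the member probes and -0.21 over all tested probes. The number called was 45 without replicate 1 of Ts1Cje at 19-20 dpp and 23 in a fit of only the 2 Ts1Cje groups. Of these calls, 17 rose in Ts1Cje and in WT (of 20 and 21) and 36 fell in both (of 48 and 46). No call moved in opposite directions between the 2 comparisons, which share no samples. The share of all tested probes called in both is not given here, so these counts do not set the members apart.

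Septin12, Ccdc116, Rbm11 and Tssk1 also rose in Ts1Cje, and Dppa4 fell, at -1.45 ± 0.21. Septin12 measured 11.58, 11.12 and 10.94 in Ts1Cje at 19-20 dpp, against 9.21, 5.79 and 6.97 in Ts1Cje at 16-17 dpp. It rose by 3.90 ± 0.80 (adjusted p = 0.002, limma), by 3.13 without replicate 2 at 16-17 dpp and by 4.84 without replicate 1, the high array of that group. Tmem30c rose by 3.77 ± 0.87 and Ccdc116 by 2.87 ± 0.50, beside 4930453N24Rik at 1.55 ± 0.36. The rise of Tmem30c was 2.45 without replicate 2 at 16-17 dpp and 4.76 without replicate 1, and that of Ccdc116 was 2.27 without replicate 1 at 19-20 dpp. Tssk1 measured 10.33, 8.11 and 7.65 in Ts1Cje at 19-20 dpp, against 6.19, 5.95 and 6.12 in Ts1Cje at 16-17 dpp, at least 4.39-fold higher (adjusted p = 0.0014, limma). Tssk2 measured 10.88, 6.98 and 6.71 in Ts1Cje at 19-20 dpp, against 5.69, 5.57 and 6.0 in Ts1Cje at 16-17 dpp. The groups of Tssk1 did not overlap. Replicate 1 at 19-20 dpp was the brightest for both kinases. Without it the fitted change of Tssk1 was 1.80, in place of 2.61, and still called. Tssk2 is counted among the 20 rises in Ts1Cje, although it is a member only through WT and Ts1Cje arrays at 19-20 dpp.

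The falls in Ts1Cje were led by Riox2, at least 5.24-fold lower at 19-20 dpp (adjusted p = 0.00047, limma), and 2510009E07Rik, at -1.89 ± 0.45. Ccdc80, a matrix protein, changed by -1.68 ± 0.36, Adcy5, an adenylate cyclase, by -1.65 ± 0.51, Snn by -1.63 ± 0.32 and Mylk, the myosin light chain kinase, by -1.47 ± 0.33. Peritubular markers, 5 of 11 detected (Cnn1 has a probe and was not), lay at 11.65 to 13.52 in Ts1Cje at 19-20 dpp, against 14.12 to 14.31 in Ts1Cje at 16-17 dpp, and all 5 fell. Their part in these changes was not tested.

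In Ts65Dn 5 member probes rose and 4 fell with age, beside 8.69% of all tested probes called (6.16% higher and 2.53% lower). The median change was -0.18 over the member probes and -0.09 over all tested probes. Septin12 measured 10.95, 9.84 and 10.01 in Ts65Dn at 19-20 dpp, against 6.24, 7.03 and 7.22 in Ts65Dn at 16-17 dpp, and rose by 3.44 ± 0.80 (adjusted p = 0.03, limma). Tmem30c rose by 3.07 ± 0.87, Ccdc116 by 1.78 ± 0.50, the SUMO protease Senp2 by 0.86 ± 0.23 and Mettl22 by 0.85 ± 0.25. Riox2 measured 6.21, 7.89 and 7.23 in Ts65Dn at 19-20 dpp, against 9.75, 9.48 and 9.25 in Ts65Dn at 16-17 dpp. It fell by 2.38 on the log2 scale (SE 0.51, adjusted p = 0.026, limma), and neither Septin12 nor Riox2 had overlapping groups. Klhl6, a Kelch-like protein, changed by -1.19 ± 0.23, Bdh1, an enzyme of ketone body metabolism, by -0.99 ± 0.23 and Opa1, a mitochondrial fusion protein, by -0.81 ± 0.18.

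Tssk1 had an uncalled difference of 0.42 ± 0.50 with age in Ts65Dn (adjusted p = 0.59, limma), and Tssk2 was not well above background on any Ts65Dn array. Rbm11 measured 9.81, 8.61 and 8.90 in Ts65Dn at 19-20 dpp, against 7.88, 7.92 and 8.12 in Ts65Dn at 16-17 dpp, a change of 1.13 ± 0.35 that did not pass (adjusted p = 0.054, limma). Med15 at 0.43 ± 0.14, 2510002D24Rik at 0.68 ± 0.23, Bbx at -0.66 ± 0.21, the mitochondrial import receptor Tomm70a at -0.70 ± 0.22 and Carhsp1 at -1.04 ± 0.36 had the smallest p among members not called, in either direction (adjusted p between 0.058 and 0.075, limma). Of 6 detected Leydig markers 4 fell with age in Ts65Dn, with a sum of 9.03 to 9.33 at 19-20 dpp, against 10.66 to 12.06 at 16-17 dpp. Of 4 detected macrophage markers (Csf1r has a probe and was not detected) 2 fell, with a sum of 8.23 to 8.53 at 19-20 dpp, against 9.98 to 10.50 at 16-17 dpp. The part of both cell types was not tested. No member stayed called without replicate 1 or 2 of Ts65Dn at 16-17 dpp, or without replicate 1 or 3 at 19-20 dpp, and 3 stayed without replicate 3 at 16-17 dpp. A fit of only the 2 Ts65Dn groups called 33 and array weights called 54. The shares of all tested probes under these settings are not given here, so these counts do not set the members apart.

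The difference between a model's age change and that of WT was tested as an interaction term, and no member passed in either model (0% of all tested probes each). At an unadjusted p under 0.05, 17 member probes differed for Ts65Dn and 3 for Ts1Cje, beside 14.4% and 2.83% of all tested probes. For Ts65Dn the interaction was 0.76 ± 0.21 for Dgcr2, 1.03 ± 0.30 for Dppa4, -1.0 ± 0.32 for D16Ertd472e and -1.63 ± 0.71 for Ccdc116, with adjusted p of 0.17, 0.18, 0.21 and 0.32 in limma. The smaller number of age calls in Ts65Dn is therefore not a tested difference from WT.

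**Figure D2:**
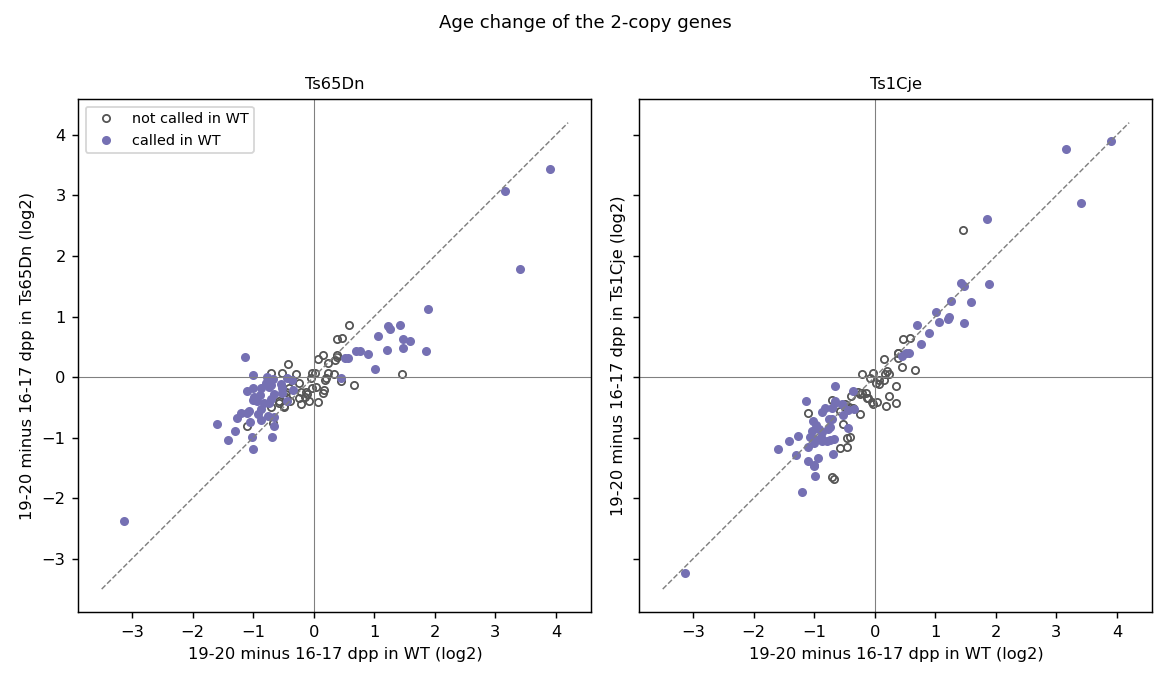
Change at 19-20 dpp against 16-17 dpp (log2) of the 112 member genes, in Ts65Dn (left) and Ts1Cje (right) on the vertical axis and in WT on the horizontal axis. Filled points are genes called in WT and the dashed line marks equal change; Septin12 (3.44 in Ts65Dn, 3.90 in Ts1Cje, 3.91 in WT) lies at the upper right and Riox2 at the lower left, plotted at its fitted change although it was not well above background at 19-20 dpp in Ts1Cje and WT.

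As a description over the 18 arrays, which share the age difference, members most like Septin12 by Pearson correlation were Rbm11 (0.968), Tmem30c (0.968) and 4930453N24Rik (0.932). Those most like Ccdc116 were Ercc4 (0.967), Rbm11 (0.953) and D16Ertd472e (0.951). Among those most like Riox2 were Carhsp1 (0.913) and Polr2h (0.911), and among those most like Alcam were Polr2h (0.955) and Vasn (0.934).

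The genotype comparisons serve as a control for genes with an extra copy. At 19-20 dpp 1 member probe rose and 4 fell in Ts65Dn against WT, beside 4.82% of all tested probes called (1.8% higher and 3.02% lower). With median scaling, 1 rose and 0 fell. The median change was 0.16 over the member probes and 0.11 over all tested probes. The 7 genes with an extra copy in Ts65Dn alone had a median of 1.08, and the 17 with an extra copy in both models 0.69. All 7 of the first set lay above 0 and 4 rose. Of the 17, 13 lay above 0, with 1 called, and 4 (Tmem50b, Cryzl1, Itsn1 and Mx2, named after their values were seen) lay below. Mx2 fell, at -0.90 ± 0.23 (adjusted p = 0.044, limma). At an unadjusted p under 0.05 there were 43 member probes, beside 30.7% of all tested probes. The groups did not overlap for 35 member probes higher in Ts65Dn and 24 lower, beside 25.3% and 19.6% of all tested probes. A fold of 1.5, the ratio of 3 copies to 2, was reached upward by 18 of 123 member probes, beside 16.7% of all tested probes, and by 6 of 7 and 10 of 17 genes of the sets with an extra copy. With probes not well above background in one group set to their bound, these counts were 17, 6 and 9, and the median of the 17 genes was 0.68. With the sample number as a replicate block, 37 member probes were called, 22 higher and 15 lower, beside 23.8% of all tested probes, and with array weights 62, beside 49.1%. Leaving out replicate 1 of Ts65Dn gave 14, leaving out replicate 2 of WT gave 3, and leaving out any other array of these groups gave 0.

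At 16-17 dpp no member probe was called in Ts65Dn against WT, beside 0.0188% of all tested probes, and array weights called 5. At an unadjusted p under 0.05 there were 11 member probes, beside 7.76%. The groups did not overlap for 16 member probes higher in Ts65Dn and 11 lower, beside 10.6% and 8.84%. The median change was 0.02 over the member probes, with 66 of 123 above 0, and -0.01 over all tested probes. The medians were 0.73 over the 7 genes with an extra copy in Ts65Dn alone and 0.80 over the 17 with an extra copy in both models, with every gene of both sets above 0 and none called. With bounds the median of the 17 was 0.74. A fold of 1.5 was reached by 4 of 123 member probes, beside 4.8% of all tested probes, and by 4 of 7 and 10 of 17 genes with an extra copy.

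In Ts1Cje no member probe was called against WT at either age, and neither was any tested probe (0% each, limma). At an unadjusted p under 0.05 there were 2 member probes at 19-20 dpp and 4 at 16-17 dpp, beside 2.97% and 2% of all tested probes. The members' median was -0.06 at 19-20 dpp and 0.03 at 16-17 dpp, and that of all tested probes -0.02 and -0.01. The genes with an extra copy in both models had medians of 0.29 at 19-20 dpp and 0.36 at 16-17 dpp. Those with an extra copy in Ts65Dn alone, which include Sod1, disrupted in Ts1Cje, had -0.11 and 0.06 at the same ages. A fold of 1.5 was reached by 1 member probe at 19-20 dpp (Tssk2) and 1 at 16-17 dpp (Tmem45a2, named after its value was seen), beside 2.44% and 1.64% of all tested probes. Tssk2 is a member only through WT and Ts1Cje arrays at 19-20 dpp. The Ts65Dn and Ts1Cje comparisons of one age share its WT arrays.

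**Figure D3:**
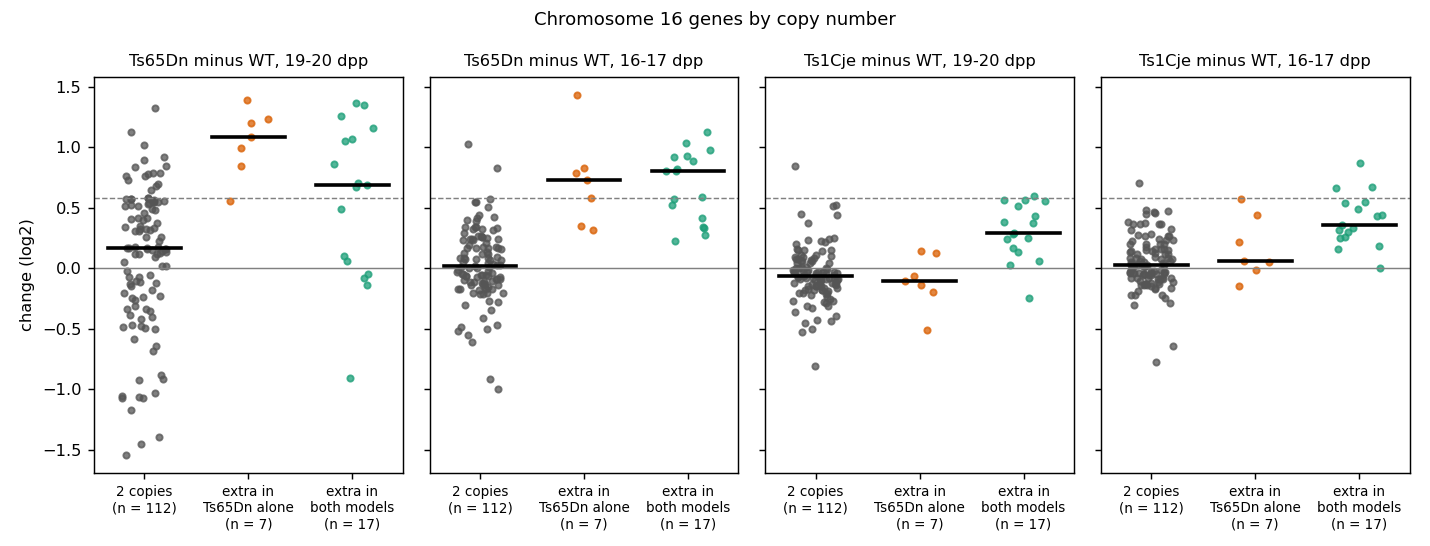
Change against WT (log2) of chromosome 16 genes in the 4 genotype comparisons, for the 112 genes in 2 copies, the 7 with an extra copy in Ts65Dn alone and the 17 with an extra copy in both models. Points are genes, black bars are medians and the dashed line is a fold of 1.5; medians of the 2-copy genes lie between -0.07 and 0.16, and those of genes with an extra copy in the model compared lie between 0.29 and 1.08.

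Along the segment, genes were grouped by the distance of their start from the boundary. In Ts65Dn against WT at 19-20 dpp the median change was 0.09 for the 57 genes 65 Mb or more away, 0.26 for 25 genes at 50 to 65 Mb, 0.33 for 25 genes at 25 to 50 Mb and -0.92 for the 5 genes within 25 Mb. At 16-17 dpp the same medians were -0.05, 0.16, 0.12 and -0.07. The 5 nearest genes did not move together. At 19-20 dpp the difference was -1.06 ± 0.22 for D16Ertd472e, which was called. It was -0.92 ± 0.35 for Rbm11, -0.92 ± 0.36 for 4930453N24Rik and 0.12 ± 0.13 for the Slit receptor Robo1, none of them called. Riox2 was detected on no WT array and on 2 Ts65Dn arrays, and the groups overlapped. By the bound its Ts65Dn mean was at least 1.37-fold higher (adjusted p = 0.11, limma, not called). With age in WT, D16Ertd472e, Rbm11 and 4930453N24Rik rose (by 1.47 ± 0.22, 1.88 ± 0.35 and 1.43 ± 0.36), Riox2 fell and Robo1 had an uncalled difference of -0.03 ± 0.13. Just beyond the boundary, in Ts65Dn at 19-20 dpp, the Ets-family factor Gabpa rose by 1.0 ± 0.19 and App, the amyloid precursor, by 1.39 ± 0.25 (adjusted p = 0.018 and 0.018, limma). The junction protein Jam2 had a difference of 0.85 ± 0.41 and the metalloproteases Adamts1 and Adamts5 of 0.55 ± 0.36 and 1.21 ± 0.48, none of them called.

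**Figure D4:**
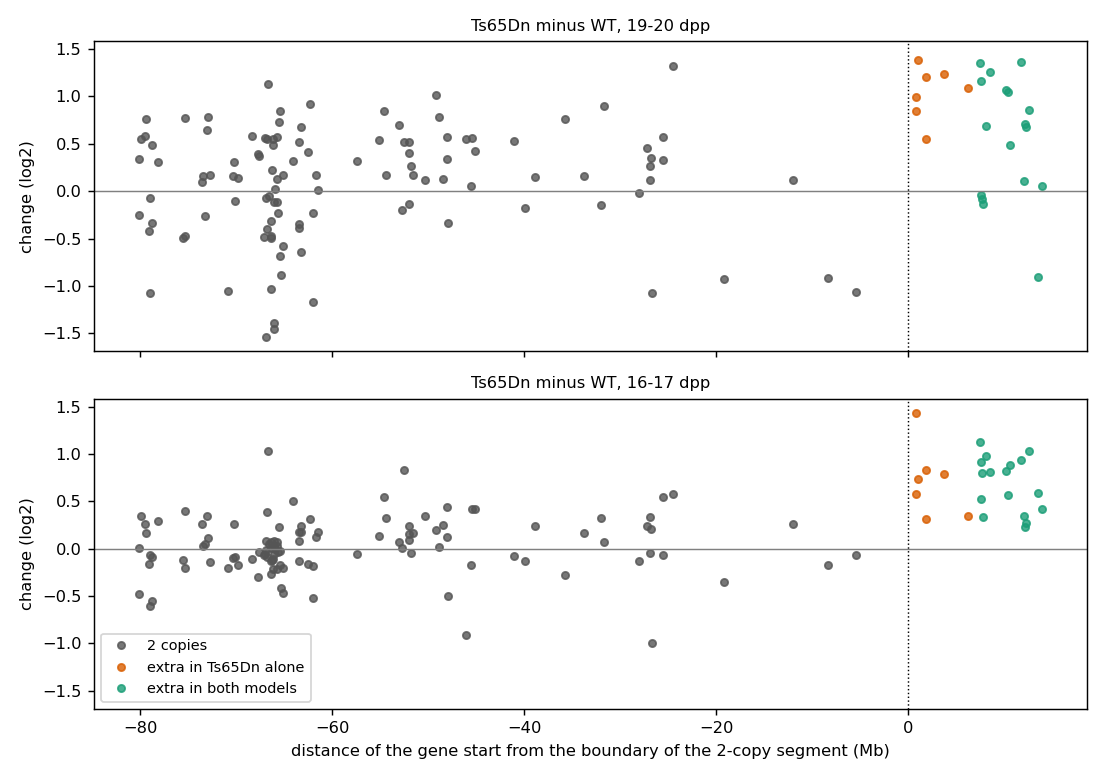
Change of each chromosome 16 gene in Ts65Dn against WT (log2) at 19-20 dpp (upper) and 16-17 dpp (lower), against the distance of the gene start from the boundary in Mb, negative on the proximal side. At 19-20 dpp 3 of the 5 genes nearest below the boundary lie below 0, the lowest D16Ertd472e at -1.06, and Riox2 is plotted at its fitted change; at 16-17 dpp every gene beyond the boundary lies above 0.

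Tmem191c, a transmembrane protein gene, was the 1 member that rose in Ts65Dn. It measured 9.14, 9.48 and 9.0 in Ts65Dn at 19-20 dpp, against 8.20, 7.99 and 8.04 in WT, a rise of 1.13 ± 0.29 (adjusted p = 0.043, limma). At 16-17 dpp it measured 9.74, 9.93 and 9.88 in Ts65Dn, against 8.69, 9.04 and 8.74 in WT, a change of 1.03 ± 0.29 that did not pass (adjusted p = 0.33, limma). The groups did not overlap at either age. In Ts1Cje Tmem191c measured 8.74, 8.62 and 8.42 at 19-20 dpp and 8.82, 10.24 and 8.79 at 16-17 dpp, with changes against the same WT arrays of 0.52 ± 0.29 and 0.46 ± 0.29 (adjusted p = 1 and 1, limma).

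The 4 members that fell in Ts65Dn at 19-20 dpp were all called as rising with age in WT. Both comparisons use the same WT arrays, with opposite sign, and the share over all tested probes is not given. Ercc4 measured 11.33, 10.76 and 10.95 in Ts65Dn, against 12.36, 11.96 and 11.88 in WT, and fell by 1.06 on the log2 scale (SE 0.27, adjusted p = 0.041, limma). Its second probe, detected on 9 arrays, stood at -0.96 and was not called. D16Ertd472e measured 10.45, 9.74 and 10.06 in Ts65Dn, against 11.35, 11.15 and 10.93 in WT, and fell by 1.06 on the log2 scale (SE 0.22, adjusted p = 0.026, limma). Ccdc74a measured 8.39, 7.52 and 7.81 in Ts65Dn, against 9.21, 8.67 and 8.95 in WT, and fell by 1.03 on the log2 scale (SE 0.26, adjusted p = 0.04, limma). Gnb1l measured 12.80, 12.47 and 12.45 in Ts65Dn, against 13.37, 13.14 and 13.27 in WT, and fell by 0.68 on the log2 scale (SE 0.18, adjusted p = 0.046, limma). In each of these genes the groups did not overlap. Their age changes in WT were 1.47 ± 0.27 for Ercc4, 1.47 ± 0.22 for D16Ertd472e, 1.21 ± 0.26 for Ccdc74a and 0.90 ± 0.18 for Gnb1l. Pachytene to diplotene markers, 2 of 13 detected, summed to 12.29 to 13.38 in Ts65Dn at 19-20 dpp, against 13.90 to 14.46 in WT, and 1 of the 2 fell. Of the 7 round spermatid markers 1 fell, and 1 of 3 meiotic prophase markers and 1 of 3 endothelial markers rose. The part of these cell types in the falls was not tested.

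None of the 6 listed late germ cell genes was called in Ts65Dn against WT at 19-20 dpp. With the replicate block 3 were lower (Ccdc116, Tssk1 and Rbm11) and 1, Dppa4, was higher. The share of all tested probes called with that block is given above, and these counts do not set the list apart. Ccdc116 measured 9.15, 7.89 and 8.13 in Ts65Dn, against 10.60, 9.75 and 9.43 in WT, a change of -1.54 ± 0.50 (adjusted p = 0.076, limma; 0.0068 with the replicate block). Tssk1 measured 7.17, 6.50 and 6.69 in Ts65Dn, against 8.92, 7.77 and 7.85 in WT, a change of -1.39 ± 0.50 (adjusted p = 0.095, limma). Tssk2 measured 5.88, 5.92 and 5.86 in Ts65Dn, against 9.02, 6.55 and 6.46 in WT, where replicate 1 was far above the other arrays. The groups of Ccdc116 and Tssk1 did not overlap. Dppa4 measured 11.46, 12.09 and 11.74 in Ts65Dn, against 10.59, 11.25 and 11.17 in WT. Its change of 0.76 ± 0.21 lay just outside the call (adjusted p = 0.05, limma; 0.012 with the replicate block), and its second probe stood at 0.90.

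Of other members with small p in Ts65Dn at 19-20 dpp, Dgcr2 measured 12.43, 12.58 and 12.44 in Ts65Dn, against 11.66, 12.12 and 12.02 in WT. The change was 0.55 ± 0.15 (adjusted p = 0.05, limma, just outside the call; 0.012 with the replicate block), and its second probe stood at 0.07. Tbx1 measured 10.54, 10.83 and 11.04 in Ts65Dn, against 9.53, 10.24 and 10.12 in WT, a change of 0.84 ± 0.25 (adjusted p = 0.059, limma; 0.0082 with the replicate block). Neither gene's groups overlapped. Med15 had a difference of -0.47 ± 0.14 and Liph of -1.17 ± 0.40 (adjusted p = 0.063 and 0.085, limma; 0.024 and 0.015 with the replicate block).

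By list, the 18 genes homologous to human 22q11 had a median of -0.01 in Ts65Dn at 19-20 dpp with 9 above 0, and -0.04 at 16-17 dpp with 7 above 0. Gnb1l was the 1 of them called, at 19-20 dpp, and with the replicate block 4 were called higher and 3 lower at that age. In Ts1Cje the medians were -0.11 at 19-20 dpp and 0.02 at 16-17 dpp. The transcription and chromatin list had a median of 0.43 in Ts65Dn at 19-20 dpp with 9 of 10 above 0 and none called, against 3 higher and 1 lower with the block. The replication and repair list had 0.44, with Ercc4 the 1 called gene, against 3 higher and 1 lower with the block. The medians were 0.23 for adhesion, 0.17 for RNA and protein synthesis, 0.13 for traffic and cilium, 0.12 for signalling and 0.11 for metabolic genes, with none called. With the block, 1, 3, 2, 2 and 2 genes of these lists were called higher, and 1, Rbm11 of the RNA list, lower. The block also called many of all tested probes, at the share given above for Ts65Dn at 19-20 dpp. The block counts therefore do not set any list apart from other probes.

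**Figure D5:**
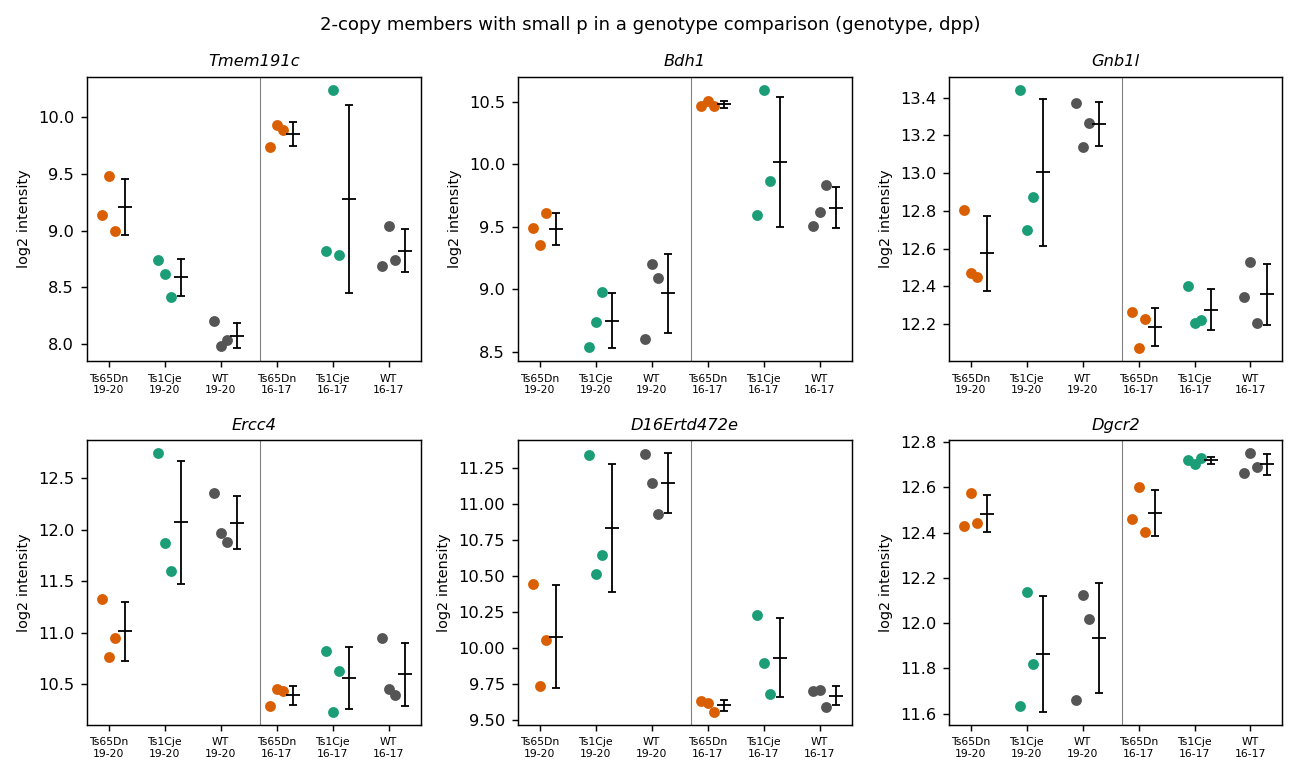
Log2 intensity on each array of 6 members with small p in a genotype comparison, with the 19-20 dpp groups left of the 16-17 dpp groups and Ts65Dn and Ts1Cje left of WT in each panel. Points are arrays, and the dash and bar are the mean and SD of 3 arrays; Ts65Dn arrays of Tmem191c lie above those of WT at both ages, and those of Ercc4 and D16Ertd472e lie below WT at 19-20 dpp.

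At 16-17 dpp the smallest p in Ts65Dn belonged to Bdh1, Tmem191c and Klhl6 among higher members, and Eef2kmt and Hira were among the lower members with the smallest p. Bdh1 measured 10.46, 10.51 and 10.46 in Ts65Dn, against 9.51, 9.62 and 9.83 in WT, a change of 0.83 ± 0.23 without overlap (adjusted p = 0.33, limma). Klhl6 had a difference of 0.51 ± 0.23, the protein methyltransferase Eef2kmt of -0.55 ± 0.19 and Hira of -0.47 ± 0.17, with 0.23 on the second Hira probe. Leydig markers, 6 of 12 detected, summed to 10.66 to 12.06 in Ts65Dn at 16-17 dpp, against 10.14 to 10.21 in WT, and their part was not tested.

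In Ts1Cje at 19-20 dpp the members with the smallest p in each direction were, beside Tmem191c, Nrros (0.44 ± 0.28), Bbx (0.25 ± 0.21), Dvl3, a transducer of Wnt signals (-0.50 ± 0.18), Robo1 (-0.36 ± 0.13) and Dppa4 (-0.43 ± 0.21). Robo1 measured 9.97, 10.07 and 9.94 in Ts1Cje, against 10.36, 10.41 and 10.29 in WT, without overlap. At 16-17 dpp they included Tbc1d23 (0.32 ± 0.15), the SUMO protease Senp5 (0.47 ± 0.24) and the translation termination factor Gspt1 (-0.13 ± 0.13). The diacylglycerol kinase Dgkg, detected on no WT array, was at least 1.06-fold higher in Ts1Cje. The interleukin receptor subunit Il1rap was detected on no Ts1Cje array and on only 1 WT array, and the groups overlapped. By the bound its Ts1Cje mean was 1.09-fold lower, at values near background. None passed, with an adjusted p of 1 for each in limma.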

How the data were processed

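The deposited array files give, per the file headers, each probe's signal intensity and detection p-value, from BeadStudio per the submitters' processing notes (version not given). The deposited series table holds the authors' log2 intensities and was used as an alternative. The files pair no probe with a gene, so zero-padded numbers in target identifiers were read as RefSeq gene numbers (GRCm38.p6). Of 11857 such numbers 9796 matched. Of probes named this way, 4.96% of 343 for Olfr genes and 87.76% of 49 for Rpl genes were detected on 3 arrays.

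Of 46657 probes, 279 control probes were left out. Signals were background-corrected from the detection p-values (nec of limma 3.58.1, offset 16) and quantile-normalised. The 21331 probes detected on 3 or more arrays entered 1 model of 6 group means, checked on simulated data. R 4.3.3 with statmod 1.5.0, and python 3.11.15 with pandas 2.3.3, numpy 2.4.6 and matplotlib 3.10.9, were used. Members, lists and tests were chosen with earlier results of these data known. Named members were the 6 called with the largest change in each direction per comparison (otherwise the called ones and 3 with the smallest p), list leaders, all late germ cell and 22q11 members, the 5 genes on either side of the boundary, and the 3 members most like each of the 2 largest rises and falls in WT. Levels of different probes were not ranked. Some members that the rule names are not reported here. The number of arrays limits the precision.

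Replicate numbers come from the labels. At 19-20 dpp deviations of same-numbered samples correlated at 0.281, 0.224 and 0.18 for Ts65Dn with WT, and 0.581, 0.313 and 0.227 for Ts1Cje with WT. At 16-17 dpp the values were -0.301, 0.265 and -0.226 for Ts65Dn with WT, and 0.635, 0.576 and 0.0309 for Ts1Cje with WT. No pairing is stated with the samples, so the main model has no block and the replicate block is an alternative. Array names in the file headers run in the order of replicate numbers except in WT at 19-20 dpp, where replicates 1 and 2 are swapped. A block by that order was not tested. Alternatives were another offset, median scaling, the series table, other detection filters, array weights, the replicate block, a fit restricted to 1 comparison's groups, and leaving out each array.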

Additional observations from a re-analysis of the deposited data

How the results depend on the processing

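Median scaling took the median of all tested probes to 0.26 in Ts65Dn against WT at 19-20 dpp and 0.14 at 16-17 dpp, with the members at 0.33 and 0.20. For Ts65Dn against WT at 19-20 dpp (5 called), median scaling called 1, keeping all probes 1, array weights 62 and the replicate block 37, with 0 to 14 on leaving out 1 array. At 16-17 dpp (0 called) array weights called 5. For age in Ts65Dn (9 called), keeping all probes called 2, requiring detection on all 18 arrays 3, array weights 54, the replicate block 22 and a fit of only the 2 groups 33, with 0 to 7 on leaving out 1 array. For age in Ts1Cje (68 called) a fit of only the 2 groups called 23, with 45 to 70 on leaving out 1 array, and for age in WT (67 called) that range was 35 to 69. The Ts65Dn interaction (0 called) gave 37 with array weights and 1 with the replicate block. Where no share of all tested probes stands beside it, a count under an alternative shows only how the number of calls depended on processing. Such a count does not set the members apart from other probes. Deviations of same-numbered samples of the 2 ages correlated at 0.238, 0.165 and 0.0782 in WT and 0.413, 0.344 and 0.0438 in Ts1Cje. In Ts65Dn the values were -0.202, 0.34 and -0.0731. Whether the numbers pair samples was not tested. For Ts1Cje with WT the correlations were positive for every number at both ages. For Ts65Dn with WT they were positive at 19-20 dpp and of both signs at 16-17 dpp. Il1rap in Ts1Cje against WT at 16-17 dpp, not called and near background, had a fitted difference that ranged over -0.49 to 0.0 on leaving out 1 array, with 0.0 without replicate 3 of WT. Of the named members' values under alternatives, 757 kept and 117 lost their side of the threshold, 48 gained a call and 1 reversed. The causes were not tested. Probes near background, such as Tssk2, give only bounds.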
